A study of Drosophila melanogaster with 9 samples.

Results

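The sarcomere genes described here are 10 genes for the contractile apparatus of muscle: Mhc, Mlc1, Mlc2, wupA, up, TpnC73F, Tm1, Tm2, Act57B and sls. They were picked by gene symbol for their role in the sarcomere, and all 10 were found among the 17611 genes counted and passed the filter on low counts. Of these genes, 2 lie on the X (wupA and up) and 8 on the autosomes. RNA of whole first instar Drosophila melanogaster larvae was sequenced in 9 libraries, 3 in each of 3 groups. The roX-KO males carried roX1[ex6] and roX2[9-4], mutant alleles of both genes for the noncoding roX RNAs. The other groups were wild-type females and wild-type males. The design addresses what the roX RNAs do in transcription.

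Muscle contracts in sarcomeres, in which thick filaments of myosin pull on thin filaments of actin. On the thin filament, tropomyosin and the troponin complex (troponins C, I and T) make the pull depend on calcium, and giant titin-like proteins tie the filaments to the Z disc. Larval body wall muscles are built in the embryo and grow as the larva crawls and feeds. The roX RNAs belong to the MSL complex, which binds the male X and raises its transcription.

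Counts in genes summed to between 17318293 and 18020359 per library. The roX1 counts were 52 to 68 in roX-KO males, 314 to 440 in wild-type females and 4964 to 6002 in wild-type males, so some roX1 reads remained in roX-KO males. The roX2 counts were 0 in each roX-KO library, 3 to 6 in wild-type females and 150 to 181 in wild-type males. The females are grouped by their sample labels, although the extraction protocol given for them speaks of male larvae. Genes of adult flight muscle were barely counted, with 0 to 7 counts per library for the flight muscle actin Act88F and 0 to 1 for the flight muscle troponin C TpnC4, while larval muscle actin Act57B had at least 109145. Library 3 of the wild-type females stood apart from the other 2 in log2 CPM (counts relative to the library size scaled by TMM, a correction for composition). Relative to the mean of the other 2, the median gene was 0.65 higher among the 25% of genes with the shortest exons. It was 0.68 lower among the 25% with the longest. In wild-type male library 2 the same medians were 0.20 and -0.27. Whether the 3 libraries of a group stem from separate cultures is not stated in the labels; the p-values then measure only the spread between libraries, which may be technical.

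All 10 sarcomere genes fell in roX-KO males against wild-type males, and 9 of them fell to between 39.9% and 58.6% of the wild-type male level. The exception was sls, at 79.1%. The share of all 11172 tested genes called lower was 32.1% (edgeR's quasi-likelihood test, Benjamini-Hochberg adjusted p under 0.05). The roX-KO and wild-type male libraries did not overlap in any of the 10 genes, where 34.2% of all tested genes were lower without overlap. The median log2 fold was -1.01 over the 10 genes and 0.02 over all tested genes. The summed share of the 10 genes in all gene counts was 2.75%, 2.67% and 2.77% among roX-KO males, 4.43%, 4.66% and 3.76% in wild-type females and 4.78%, 4.56% and 4.57% in wild-type males. In RNA of whole larvae, fewer muscle cells and less RNA per muscle cell cannot be told apart.

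**Figure D1:**
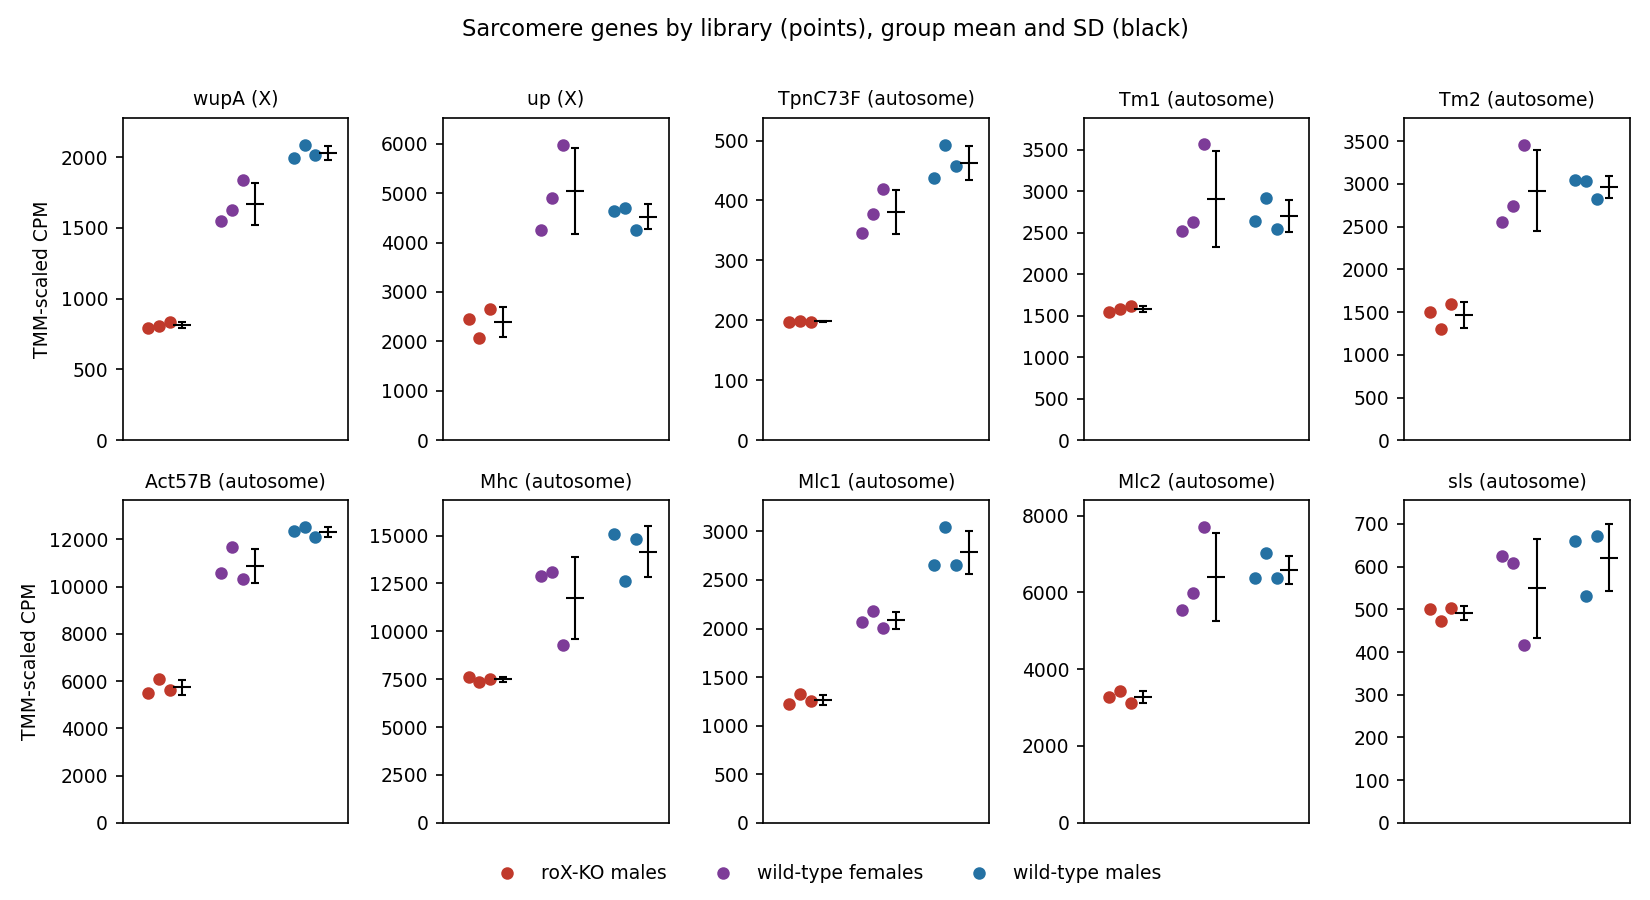
TMM-scaled CPM of each sarcomere gene in the 3 libraries of roX-KO males, wild-type females and wild-type males (points), with the group mean and SD in black. In every gene the 3 roX-KO libraries sit below the 3 wild-type male libraries, by the smallest margin for sls, and female library 3 stands away from the other 2 female libraries in several genes.

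The 3 thick filament genes had log2 folds between -1.14 and -0.92 in roX-KO males against wild-type males. Mhc encodes the muscle myosin heavy chain, the motor of the thick filament (FBgn0264695, dm6 chromosome 2L, 16766566 to 16788766, 9058 bases of exon). Scaled by TMM, which corrects library sizes for composition, Mhc stood at 7618, 7346 and 7515 CPM in roX-KO males, 12875, 13100.3 and 9275 CPM in wild-type females and 15059, 12631 and 14799 CPM in wild-type males. All roX-KO libraries were below every other library, and female 3 was the lowest of the wild-type libraries. The log2 fold in roX-KO males against wild-type males was -0.92 ± 0.10 (SE, n = 3 per group, edgeR adjusted p = 5.19e-06).

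Mlc1 encodes the essential light chain that binds the myosin neck (FBgn0002772, 3R, 27657078 to 27660177, 1414 bases of exon). Its levels were 1220.0, 1326 and 1252 CPM in roX-KO males, 2062, 2179 and 2009.6 CPM in wild-type females and 2659, 3044 and 2657 CPM in wild-type males. The 3 groups formed separate tiers, with the females between the male groups. Against wild-type males the log2 fold was -1.14 ± 0.09 in roX-KO males (edgeR adjusted p = 2.86e-07). Mlc2, the regulatory light chain, is a second autosomal light chain gene (FBgn0002773, 3R, 30171438 to 30174551, 2286 bases of exon). Its levels were 3264, 3439 and 3131 CPM in roX-KO males, 5538, 5970.3 and 7700.3 CPM in wild-type females and 6380.3, 7014 and 6369 CPM in wild-type males. Only the roX-KO libraries stood apart for Mlc2, and female 3 was its highest library. Its log2 fold in roX-KO males against wild-type males was -1.01 ± 0.09 (edgeR adjusted p = 9.44e-07).

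On the thin filament, Act57B encodes the main actin of larval muscle (FBgn0000044, 2R, 20944021 to 20946431, 1724 bases of exon). It had 5503, 6099.9 and 5599 CPM in roX-KO males, 10586, 11680.4 and 10326 CPM in wild-type females and 12339, 12523 and 12089.6 CPM in wild-type males. No library of one group overlapped another group, and the roX-KO values were about 46.5% of those in wild-type males (log2 fold -1.10 ± 0.09, edgeR adjusted p = 4.73e-07). Per kilobase of exon Act57B was the most abundant of the 10 genes, ranking 9 among all tested genes in roX-KO males, 7 in wild-type females and 4 in wild-type males. Actin genes are alike in sequence, and reads that fit several copies were left out of the counts of any of them (2.75% to 3.18% of reads per library over all genes), so how the actins divide their reads is uncertain.

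Tm1 and Tm2 encode the tropomyosins, coiled coils that lie along actin, and are neighbours on 3R, 1413 bases apart on the same strand. Tm1 (FBgn0003721, 15278220 to 15308779, 9804 bases of exon) also gives cytoskeletal isoforms, so part of its level need not come from muscle. Its levels were 1549, 1576 and 1623 CPM in roX-KO males, 2522, 2625 and 3568 CPM in wild-type females and 2645, 2914 and 2543 CPM in wild-type males. The roX-KO libraries were the lowest for Tm1, and the female and wild-type male ranges overlapped (log2 fold -0.77 ± 0.08 between the male groups, edgeR adjusted p = 6.31e-06). Tm2 (FBgn0004117, 15310193 to 15315197, 2613 bases of exon) stood at 1504, 1296 and 1589.5 CPM in roX-KO males, 2560.1, 2739 and 3455 CPM in wild-type females and 3047, 3031 and 2821 CPM in wild-type males. It showed the same order, with a log2 fold of -1.02 ± 0.09 between the male groups (edgeR adjusted p = 1.44e-06).

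The troponins include both X-linked genes. Troponin I, which holds the thin filament off, is encoded by wupA (FBgn0283471, X, 18105568 to 18116922, 1978 bases of exon). Its levels were 794, 808 and 834 CPM in roX-KO males, 1548, 1625 and 1836 CPM in wild-type females and 1993, 2086 and 2015 CPM in wild-type males. The groups did not overlap, and wupA had the lowest fold of the 10 genes in roX-KO males against wild-type males, -1.32 ± 0.08 on the log2 scale (edgeR adjusted p = 2.05e-08). Troponin T, which anchors the complex on tropomyosin, is encoded by up (FBgn0004169, X, 13593474 to 13602578, 2530 bases of exon). It had 2454, 2061 and 2664.5 CPM in roX-KO males, 4249, 4899 and 5965 CPM in wild-type females and 4638, 4695 and 4246 CPM in wild-type males. The spread of up in roX-KO males was the widest of the 10 genes there (CV 12.8%), with library 2 the lowest, yet all 3 libraries were below every wild-type library (log2 fold -0.92 ± 0.10 between the male groups, edgeR adjusted p = 8.78e-06).

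Troponin C, the calcium sensor, is encoded by several genes, of which TpnC73F is autosomal (FBgn0010424, 3L, 17046063 to 17048390, 1059 bases of exon). TpnC73F stood at 198, 199 and 197 CPM in roX-KO males, 346, 377 and 419 CPM in wild-type females and 437, 493 and 458 CPM in wild-type males. The roX-KO libraries agreed within a CV of 0.637%, and the groups formed 3 tiers. The log2 fold in roX-KO males against wild-type males was -1.22 ± 0.07 (edgeR adjusted p = 2.74e-08), next to that of troponin I.

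The titin-like gene sls differed from the rest. It encodes Sallimus, a giant protein that links the Z disc to the thick filament (FBgn0086906, 3L, 2039681 to 2115611, 58996 bases of exon). It had 500.0, 472 and 503 CPM in roX-KO males, 624, 608 and 416 CPM in wild-type females and 661, 531 and 671 CPM in wild-type males. Wild-type male library 2 lay close to the roX-KO libraries, and female 3 lay below them. The log2 fold in roX-KO males against wild-type males was -0.34 ± 0.09 (95% interval -0.52 to -0.15, edgeR adjusted p = 0.00731), and its interval overlapped that of none of the other 9 genes. Scaled by total counts alone the log2 fold of sls was -0.11 and its call was lost (edgeR adjusted p = 0.339), and it was also lost when all 9 libraries shared 1 estimate of spread (adjusted p = 0.142). The 25% of genes with the longest exons had a median log2 fold of 0.23 in the same comparison and the 25% with the shortest had -0.19. The part of exon length in the value of sls was not tested.

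**Figure D2:**
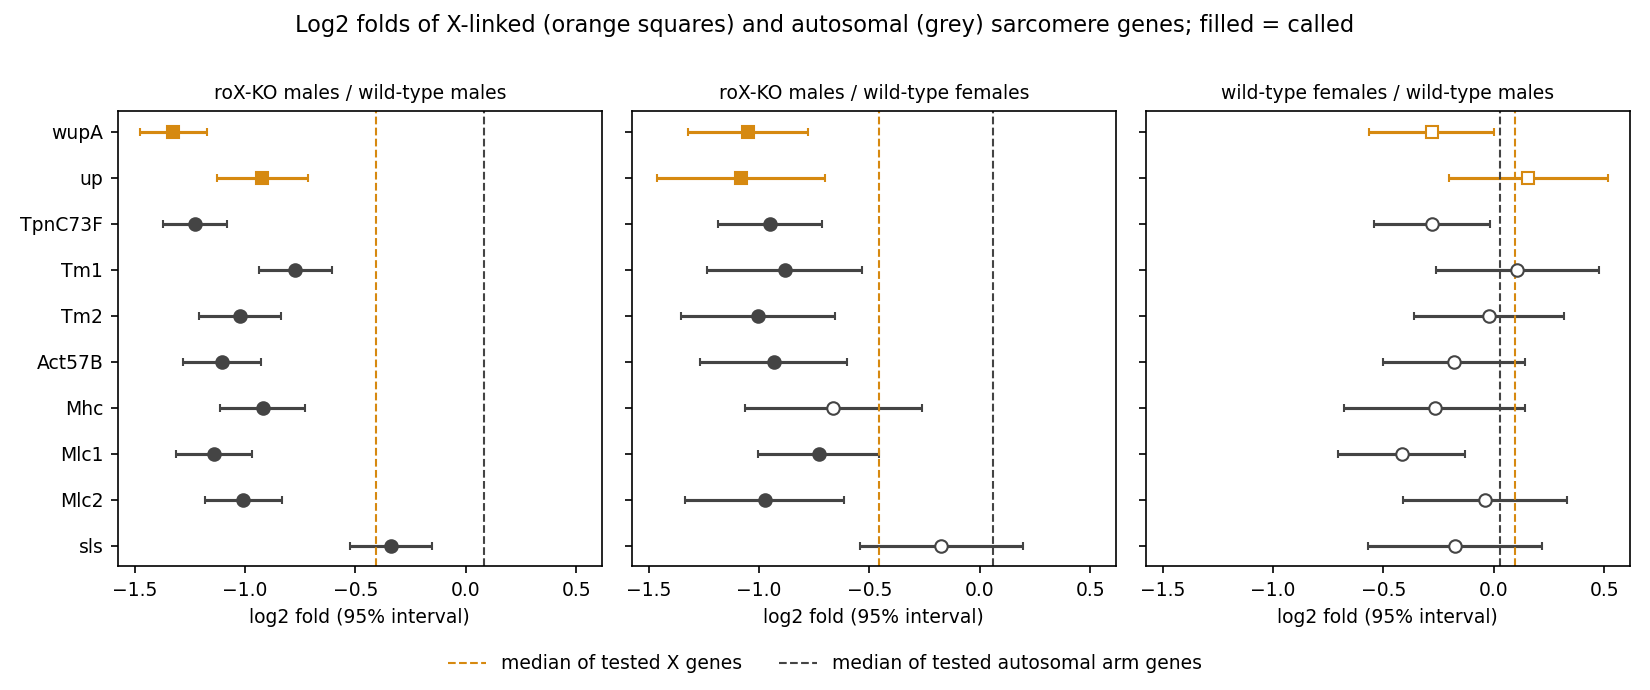
Log2 folds of the 10 genes with 95% intervals in roX-KO males against wild-type males, roX-KO males against wild-type females, and wild-type females against wild-type males. Filled symbols were called at an adjusted p under 0.05, squares are the X-linked genes, and dashed lines are the medians of all tested X genes (orange) and autosomal arm genes (grey): all 10 genes are called in the first panel, 8 in the second and none in the third.

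The folds of the X-linked and autosomal sarcomere genes overlapped in roX-KO males, although the X as a whole was shifted. All tested X genes had a median log2 fold of -0.41 against wild-type males, while the 4 large autosomal arms (2L, 2R, 3L, 3R) had 0.08. The share of genes called lower was 58.9% on the X and 27.2% on these arms. The X-linked sarcomere genes had a mean log2 fold of -1.12 and the 8 autosomal ones a median of -1.01, with a range of -1.22 (TpnC73F) to -0.34 (sls). Set against the median of their own chromosomes, wupA stood 0.92 and up 0.51 below the X median, while the autosomal genes stood 0.42 (sls) to 1.31 (TpnC73F) below the arm median. The low end of that autosomal range was sls alone, and Tm1 came next at 0.85 below the arm median. Thus up departed less from its chromosome than every autosomal gene but sls, and wupA less than all but sls and Tm1. Of all X genes, 8.11% had a lower fold than wupA and 18.6% a lower fold than up. Of all arm genes, 5.91% had a lower fold than TpnC73F and 23.1% a lower fold than sls.

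Library by library, the mean log2 level of the X-linked genes, relative to wild-type males, minus that of the autosomal genes came to -0.17, -0.29 and -0.10 among roX-KO males, -0.02, 0.04 and 0.28 in wild-type females and 0.00, 0.03 and -0.04 in wild-type males. The roX-KO values were below those of the other groups, by less than the X and the arms differed in their medians. The value of 0.28 belonged to female library 3. With 2 X-linked genes, no test of this difference was made.

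In roX-KO males against wild-type females, 8 of the 10 genes were called lower, where 16.6% of all 11173 tested genes were. The log2 folds of the called genes ran from -1.08 ± 0.19 for up (edgeR adjusted p = 0.0067) to -0.73 ± 0.14 for Mlc1 (0.00854). Mhc had a log2 fold of -0.66 ± 0.21 (edgeR adjusted p = 0.0511) and sls of -0.17 ± 0.19 (0.516). Mhc did not overlap between these groups, while sls did. Without female library 3 all 10 genes were called, Mhc at -0.82 (edgeR adjusted p = 5.53e-08) and sls at -0.35 (6.95e-05), with 31.6% of all genes called lower. Leaving out roX-KO library 1 or 3 left 4 genes called (wupA, up, TpnC73F and Tm2), and leaving out library 2 left 7, with folds on the same side of 0.

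Between the wild-type sexes, none of the 10 genes was called by edgeR, where 11.2% of all 11104 tested genes were lower and 10.8% higher in females. The largest difference was that of Mlc1, with a log2 fold of -0.42 ± 0.15 in females against males (edgeR adjusted p = 0.0895, lower in 3 of 3 libraries). DESeq2 called it (adjusted p = 0.00617), as did the fit over all 9 libraries (adjusted p = 0.0234). The 95% intervals of the log2 fold ran from -0.56 to 0.00 for wupA and from -0.20 to 0.52 for up. Autosomal intervals reached from -0.71 (Mlc1) at the low end to 0.48 (Tm1) at the high end. These intervals are not adjusted for the number of genes: those of Mlc1 (-0.71 to -0.13) and TpnC73F (-0.54 to -0.02) lay below 0, and those of the other 8 genes included it. Groups did not overlap for Mlc1, wupA, TpnC73F and Act57B, all lower in females, where 20.8% of all genes were lower without overlap. Without female library 3, Mlc1, wupA and TpnC73F were called lower in females, with log2 folds of -0.39, -0.36 and -0.35 (edgeR adjusted p = 0.00962, 0.0082 and 0.00853), and 26.1% of all genes were called lower.

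Female library 3 did not shift the 10 genes in 1 direction. Relative to the other 2 female libraries, its TMM-scaled log2 CPM was 0.47 higher for Tm1, 0.42 for Mlc2, 0.39 for up and 0.38 for Tm2. It was 0.49 lower for Mhc and 0.57 lower for sls. The TMM factor of female library 3 was 0.836, against 1.03 and 1.02 for the other 2, so these sizes depend on the scaling. Mhc and sls are among the genes with the longest exons, as is Tm1, which went the other way. In wild-type male library 2 the same difference was -0.24 for Mhc, -0.33 for sls and 0.20 for Mlc1.

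**Figure D3:**
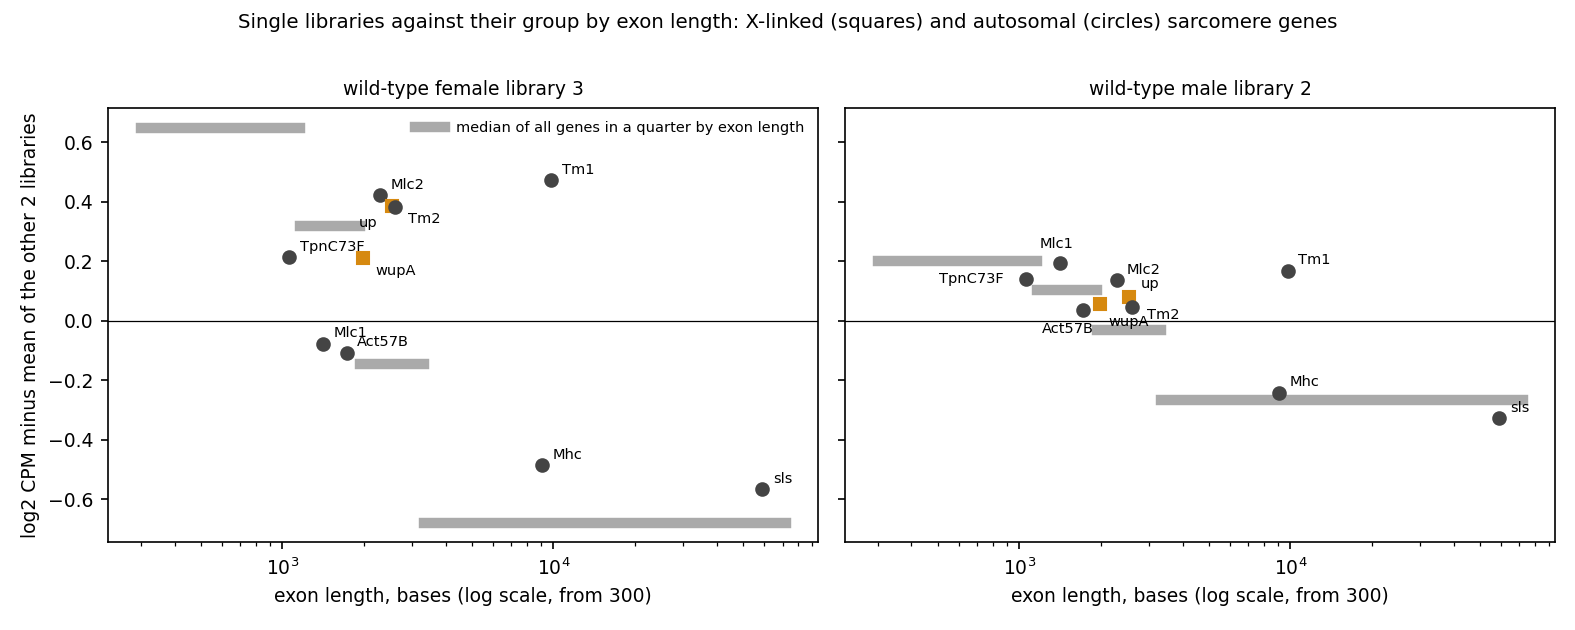
TMM-scaled log2 CPM of each sarcomere gene in wild-type female library 3 (left) and wild-type male library 2 (right) minus the mean of the other 2 libraries of the group, against exon length on a log axis. Grey bars are the medians of all genes in 4 equal classes by exon length, which fall from 0.65 to -0.68 in the left panel; Mhc and sls lie near the lowest bar and Tm1 far above it.

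The shares of Act57B and Mlc2, the most abundant sarcomere genes per kilobase, had overlapping ranges in the 3 groups. Per kilobase of exon, Act57B made 38.0% ± 1.67 of the sum over the 10 genes in roX-KO males, 38.3% ± 2.97 in wild-type females and 39.2% ± 0.337 in wild-type males (SD, n = 3 each). Mlc2 came next, with 16.4% ± 0.696 in roX-KO males, 16.9% ± 2.32 in wild-type females and 15.8% ± 0.537 in wild-type males. Between roX-KO and wild-type males some shares did not overlap. Those of wupA (means 4.69% and 5.63%) and TpnC73F (2.14% and 2.40%) were lower in roX-KO males. Those of Tm1 (1.84% and 1.51%) and sls (0.0952% and 0.0579%) were higher, and the shares of the other genes overlapped between the male groups. Exon length here is the union of all annotated exons, which counts exons that larval muscle may not use, so genes with many isoforms come out low per kilobase.

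Some ratios between partner genes did move; these pairs were chosen after their values had been seen and carry no test. The ratio of sls to Mhc per kilobase was 0.0101 ± 0.000203 in roX-KO males, 0.00715 ± 0.000277 in wild-type females and 0.00672 ± 0.000253 in wild-type males. All 3 roX-KO libraries were above the other 6, female 3 included. Act87E, a second muscle actin, stood to Act57B at 0.0477 ± 0.00152 in roX-KO males, 0.0351 ± 0.000425 in wild-type females and 0.0257 ± 0.00119 in wild-type males, with no overlap between groups. The ratio of troponin I to troponin T, wupA to up, was 0.438 ± 0.0551 in roX-KO males, 0.428 ± 0.0362 in wild-type females and 0.575 ± 0.0293 in wild-type males (SD, n = 3 each). Here it was the wild-type males that stood apart from both other groups.

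**Figure D4:**
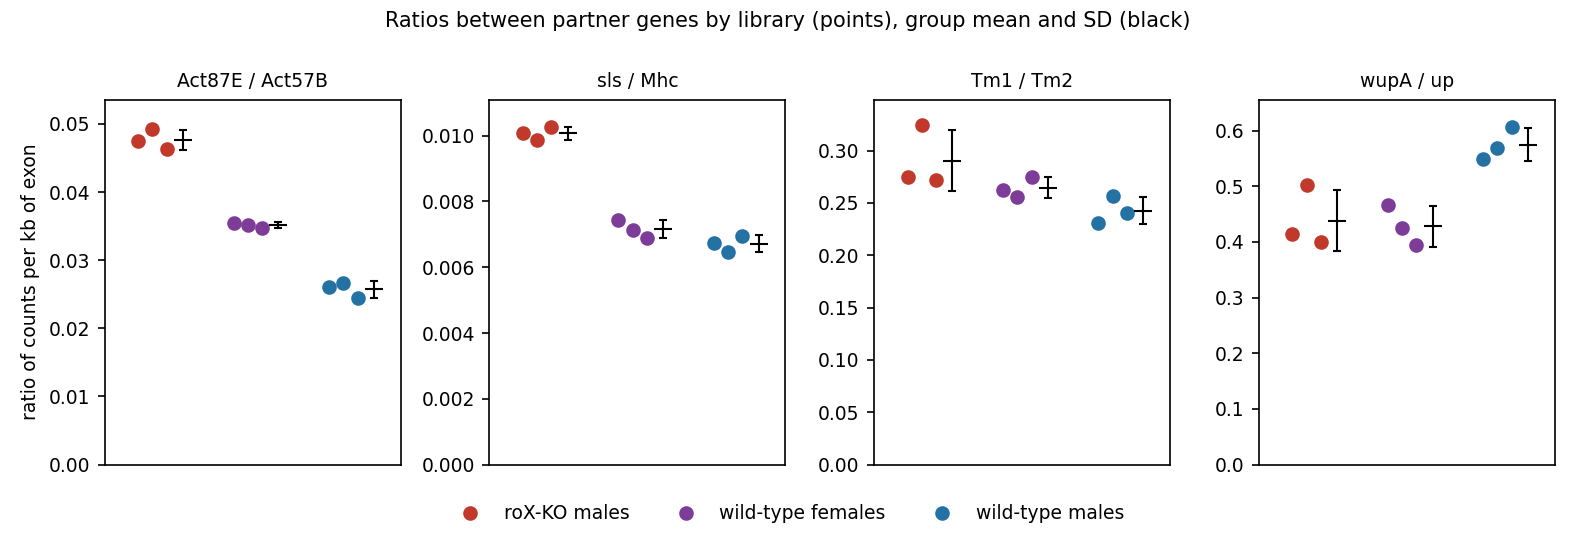
Ratios of counts per kilobase of exon between pairs of genes in each library (points), with group mean and SD in black, for roX-KO males, wild-type females and wild-type males. The ratios Act87E / Act57B and sls / Mhc are highest in all 3 roX-KO libraries, and wupA / up is highest in the 3 wild-type male libraries.

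Paralogs of the sarcomere genes did not move as 1 group. Among muscle actins, Act87E had 301, 347 and 299 CPM in roX-KO males, 434, 474 and 413 CPM in wild-type females and 371, 386 and 340.3 CPM in wild-type males. Its log2 fold in roX-KO males against wild-type males was -0.21 ± 0.08 (edgeR adjusted p = 0.0402), and 0.02 when scaled by total counts (0.856). Act79B stayed near 1.54 ± 0.101 CPM in roX-KO males and 1.49 ± 0.354 CPM in wild-type males. Of the cytoplasmic actins, Act42A rose in roX-KO males, with 303, 305 and 302 CPM against 143, 142 and 148 CPM in wild-type males (log2 fold 1.07 ± 0.07, edgeR adjusted p = 3.46e-08). Act5C, an X-linked cytoplasmic actin, had a log2 fold of -0.39 ± 0.09 (edgeR adjusted p = 0.00212), which total-count scaling took out of the calls (0.0972).

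The other troponin C genes with enough counts were lowered like TpnC73F. TpnC47D had 377, 322 and 373 CPM in roX-KO males and 739, 879.6 and 726 CPM in wild-type males, a log2 fold of -1.13 ± 0.10 (edgeR adjusted p = 7.41e-07). TpnC25D had 46.0, 46.3 and 44.8 CPM in roX-KO males and 106, 128 and 106 CPM in wild-type males, with a log2 fold of -1.31 ± 0.09 (edgeR adjusted p = 6.48e-08). Non-muscle myosin had calls in both directions: the heavy chain zip rose by 0.29 ± 0.10 on the log2 scale in roX-KO males (edgeR adjusted p = 0.0246), while its X-linked light chains sqh and Mlc-c had log2 folds of -0.43 ± 0.08 and -0.66 ± 0.07 (0.000432 and 5.93e-06). Of 12 non-muscle actomyosin genes, the 2 called higher were Act42A and zip, zip with the smaller fold. Only 1 was called higher with TMM from the autosomal arms, and 1 in the fit over all 9 libraries.

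The other muscle lists had medians nearer 0 than the 10 genes, and several of their calls changed with the scaling. Total-count scaling put the median log2 fold of all genes at 0.25, against 0.02 under TMM, and counts under it follow each list in brackets. Of 6 tested thick filament and giant protein genes, 4 fell and 1 rose in roX-KO males [2 fell and 2 rose], the list median being -0.43. Of all tested genes, 32.1% were called lower and 31.4% higher. With total counts, the background for the brackets, 2395 of the 11172 genes were called lower and 5467 higher. Paramyosin Prm (-0.78 ± 0.08, edgeR adjusted p = 3.43e-06), myofilin Mf (-0.77 ± 0.09, 8.73e-06) and projectin bt (-0.44 ± 0.10, 0.00274) had the lowest folds. With total counts bt was not called (edgeR adjusted p = 0.0929). The gene that rose, named after its value was seen, was flightin fln (0.93 ± 0.25, 0.00577), whose exons lie 61.6% under a gene of the opposite strand. Its level was low, at 1.52 ± 0.196 CPM in roX-KO males and 0.793 ± 0.166 CPM in wild-type males (SD). Without strand in the library kit its reads cannot be assigned with certainty.

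Of 19 tested thin filament and Z disc genes, 12 fell and 2 rose [6 fell and 4 rose], with a median of -0.24. Beside the troponin C genes, the X-linked Actn, alpha-actinin of the Z disc, had a log2 fold of -1.05 ± 0.08 (edgeR adjusted p = 2.48e-07). The genes that rose were l(2)efl, a small heat shock protein gene (0.73 ± 0.08, 1.02e-05), and DAAM, a formin that builds actin filaments (0.32 ± 0.08, 0.00322). Among 9 tested genes of calcium handling and excitation, 3 fell and 1 rose [1 fell and 3 rose], with a median of -0.30. The calcium pump SERCA fell (-0.71 ± 0.08, edgeR adjusted p = 9.99e-06), as did the junctophilin jp (-0.56 ± 0.14, 0.00461) and Amph (-0.41 ± 0.07, 0.000384), while stj, a calcium channel subunit, rose (1.09 ± 0.09, 5.36e-07). With total counts jp and Amph were not called (edgeR adjusted p = 0.0615 and 0.0582).

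Of 14 muscle attachment genes, 7 fell and 3 rose [5 fell and 5 rose], with a median of -0.23. Paxillin Pax, parvin and the integrin chain mys had the lowest log2 folds (-0.76, -0.71 and -0.63), and the tendon genes Tsp and sr rose with talin rhea (0.42, 0.39 and 0.41). Among 7 postsynaptic genes of the neuromuscular junction 6 fell and 0 rose [2 fell and 0 rose], with a median of -0.42, led by the glutamate receptor subunits GluRIIA (-0.50 ± 0.08), GluRIIC (-0.43 ± 0.07) and GluRIID (-0.43 ± 0.11). With total counts GluRIID was not called (edgeR adjusted p = 0.146). Of 12 non-muscle actomyosin genes, 6 fell and 2 rose [5 fell and 3 rose], with a median of -0.28. With TMM from the autosomal arms 9 fell and 1 rose, where 3952 of all 11172 genes fell and 3071 rose. Beside the myosin and actin genes above, cofilin tsr and Arp2 had log2 folds of -0.51 and -0.50. The genes that fell include the X-linked Act5C, sqh and Mlc-c, and the median log2 fold of all tested X genes was -0.41. In the fit over all 9 libraries fewer genes were called: 2 thick filament, 7 thin filament and Z disc, 2 calcium handling, 4 attachment and 4 postsynaptic genes fell, and 1 gene rose in each of the first 4 of these lists and 0 in the postsynaptic list. Of all 11308 genes tested in that fit, 2423 fell and 2040 rose.

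Transcription factors of muscle had calls in both directions, as did all tested genes (32.1% lower and 31.4% higher, and with total counts 2395 lower and 5467 higher of 11172). Of 8 tested, 3 fell and 4 rose in roX-KO males [2 fell and 4 rose], the list median being 0.12. The rises hung on the setting: with TMM from the autosomal arms 3 fell and 1 rose, and in the fit over all 9 libraries 2 fell and 0 rose. Mef2, the factor that drives muscle differentiation genes, had 99.1, 102 and 99.1 CPM in roX-KO males, 346, 335 and 206 CPM in wild-type females and 219.9, 174 and 214 CPM in wild-type males. The roX-KO libraries were below all the others (log2 fold -1.02 ± 0.09 between the male groups, edgeR adjusted p = 8.95e-07, and -1.58 ± 0.22 against wild-type females, 0.00229). The myoblast factor lmd also fell (-1.72 ± 0.22, edgeR adjusted p = 2.22e-05), at 0.973 ± 0.200 CPM in roX-KO males and 3.21 ± 0.548 CPM in wild-type males, and Hand fell by 0.34 on the log2 scale. With total counts Hand was not called (edgeR adjusted p = 0.403). The genes bap, nau and Cf2 rose (0.87, 0.34 and 0.29), as did tup (0.25), named after its value was seen.

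**Figure D5:**
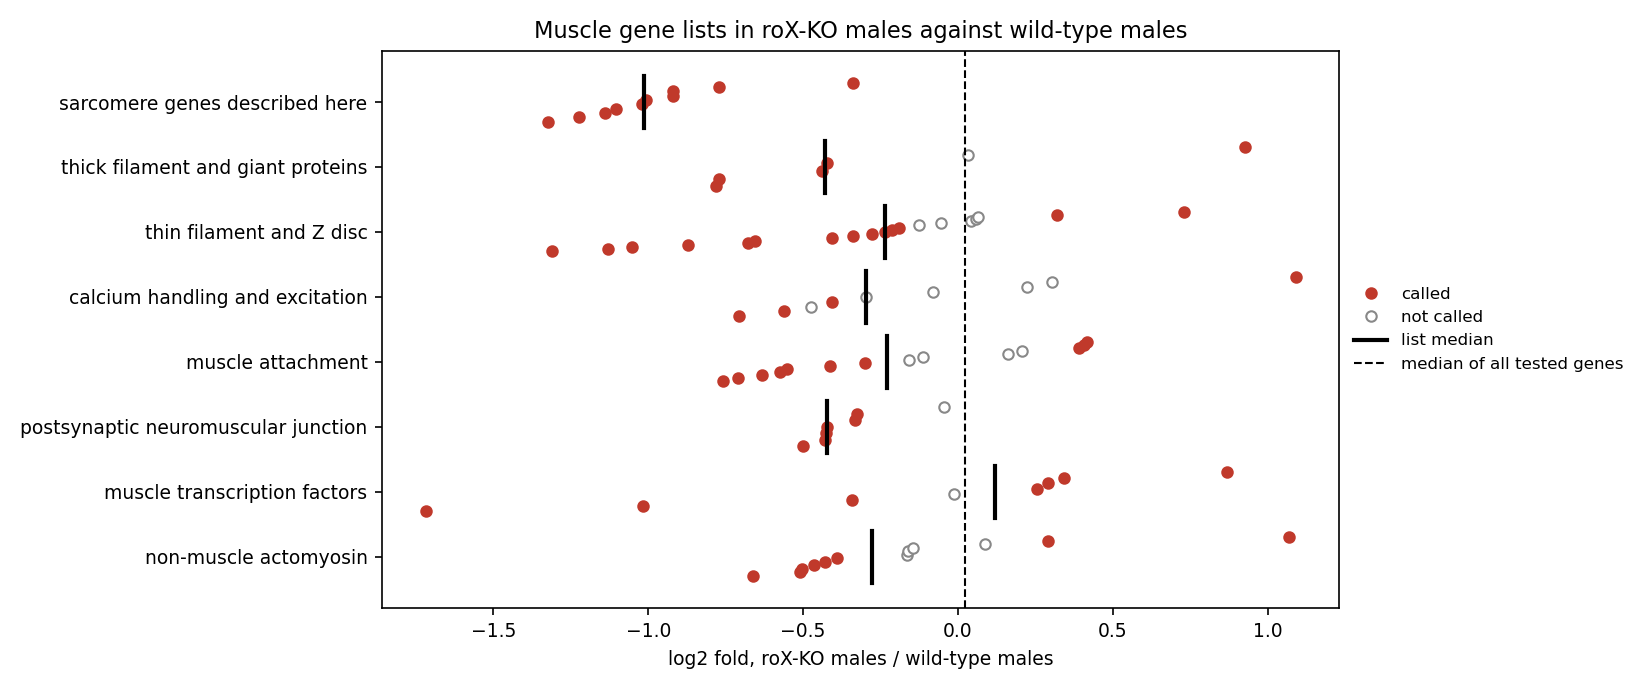
Log2 folds in roX-KO males against wild-type males of each tested gene in 8 lists, with list medians (black bars) and the median of all tested genes (dashed line, 0.02); red points were called and open points were not. The sarcomere genes other than sls lie lower than most genes of the other lists, and transcription factors, calcium handling and non-muscle genes spread to both sides.

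Markers of other tissues moved in the same libraries, where 32.1% of all tested genes were called lower and 31.4% higher in roX-KO males against wild-type males. Of 9 neuronal markers 8 were higher and 1 lower in roX-KO males against wild-type males, onecut being the furthest up (1.23) and elav the one down (-0.53). Counts of these calls were the same with total-count scaling for neurons, epidermis and midgut. The summed level of the neuronal markers was 647 to 672 CPM in roX-KO males and 333 to 436 CPM in wild-type males. Of 9 epidermis and cuticle markers 8 were lower and 0 higher (obst-A -3.07), with sums of 468 to 522 CPM in roX-KO males and 1562 to 1597 CPM in wild-type males. In fat body 5 of 7 were lower and 0 higher (apolpp -0.61), but 5 lower and 2 higher (Lpin and FASN1) with total counts, with sums of 3315 to 3403 CPM in roX-KO males and 3765 to 4680.0 CPM in wild-type males. Hemocyte markers counted 5 lower and 1 higher of 8, and 3 lower and 2 higher with total counts (PPO1 -1.93, srp 0.24; sums 5033 to 6040.0 in roX-KO males and 6341 to 7415 CPM in wild-type males), and midgut markers 4 lower and 2 higher of 7 (LManIII -5.56, Jon66Cii 1.74; sums 2035 to 2262 CPM in roX-KO males and 2542 to 3247 CPM in wild-type males). Most of the hemocyte sum came from Col4a1 and vkg, at means of 3580 and 1855 CPM in roX-KO males, and neither was called with total counts. Mitochondrial genes held 7.13% ± 1.14 of the total among roX-KO males, against 10.7% ± 1.43 in wild-type males (SD, n = 3 each). Of these markers only Lsp2 was at 0 in any library (roX-KO library 2), but several other lower calls rest on low levels. The fat body genes called lower include Lsp1alpha, Lsp1beta, Lsp2 and Fbp1, with at most 2.63 CPM in any male library. Those of epidermis and cuticle include Cpr47Ef, Cpr49Ae, Lcp1 and Lcp2, with at most 4.93 CPM in any male library. The fat body sum came mostly from apolpp and FASN1, at means of 2053 and 1075 CPM in roX-KO males. The part of these changes in the sarcomere gene results was not tested. Of 4 equal classes by exon length, the longest (3358 bases or more) had a median log2 fold of 0.23 between the male groups. The shortest had -0.19. All the neuronal markers lie in the longest class, elav included. Among muscle and actomyosin genes named above as rising, zip, rhea, sr, Tsp, DAAM, stj and Cf2 lie there too. Act42A, l(2)efl, fln, bap, nau and tup do not. The part of exon length in these rises was not tested.

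Across the 9 libraries, the sarcomere genes followed one another to different degrees, as a description over 3 groups that themselves differ. Pearson's r of log2 CPM between a gene and the mean of the other 9 was 0.995 for wupA, 0.9897 for TpnC73F, 0.985 for Act57B, 0.877 for Mhc and 0.448 for sls. Among 8289 other genes, those most like the mean of the 10 were nol (r = 0.999), Cpr56F (0.999), CG14852 (0.998), CG14565 (0.998), Cpr67Fa1 (0.998) and LManVI (0.998). All 6 had lower folds in roX-KO males against wild-type males than any sarcomere gene, the nearest being LManVI at -2.55 and Cpr56F at -3.07 on the log2 scale.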

How the data were processed

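Per the labels' protocols, polyadenylated RNA of whole larvae was read as 100 base paired ends, with no step that marks the strand, and the strand setting of the counting is not given in the sources used here. HISAT2 2.2.1, SAMtools 1.13, HTSeq 2.0.2, DESeq2 and dm6 are named in the submitters' processing notes, with no roles. The authors deposited raw counts per gene for each library; reads in no gene, 45.7% to 47.9% of those counted, were left out here. A deposited table of the 6 male libraries holds FPKM, a mean signal per gene, log2 fold changes, a test score and p-values, per the file headers. It served only as an alternative and as a check: a DESeq2 refit gave its log2 folds for the 10 genes with differences of at most 9.99e-15. Symbols, dm6 positions and exon lengths came from Ensembl 115, which matched 17556 of 17611 IDs.

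Each comparison was fitted on its 6 libraries (TMM, filterByExpr with a minimum count of 10 and total of 15, edgeR 4.0.16 quasi-likelihood test with robust dispersions, limma 3.58.1, R 4.3.3), with Benjamini-Hochberg adjustment over all genes tested and calls at an adjusted p under 0.05. SE is the fold divided by the root of F. CPM were TMM-scaled over all 9 libraries; log2 CPM used a prior count of 2. The script was tested on simulated data. Replicates differed by more than sampling noise. The genes and lists were chosen with earlier results of these data known. From each list the 3 lowest and 3 highest folds among called genes with a mean log2 CPM of at least 1 are named (1 each way for other tissues), with all actin, troponin C and non-muscle myosin paralogs, and the 6 genes most like the mean of the 10, among genes with a mean log2 CPM of at least 3. Alternatives were other scalings, no filter, DESeq2 1.42.0, limma on log2(FPKM + 1), 1 fit over all 9 libraries, a replicate block, and leaving out each library. Figures used matplotlib 3.10.9 in Python 3.11.15 (NumPy 2.4.6, pandas 2.3.3).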

Additional observations from a re-analysis of the deposited data

How the results depend on the processing

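In roX-KO males against wild-type males, all 10 genes kept a negative fold under every alternative run, and calls were lost only for sls, under total counts (-0.11) and the 9-library fit (-0.34). The count of all genes called was 7093, and 4463 under the 9-library fit. Scaling moved the split of calls: 3505 higher and 3588 lower with TMM, 5467 and 2395 with total counts, and 3071 and 3952 with TMM from the autosomal arms. Against wild-type females the split was 1193 and 1851, 1775 and 1311, and 995 and 2111. The summed share of the 10 genes in gene counts stood in a ratio of 0.590 between roX-KO and wild-type males, and 0.567 without mitochondrial counts. Leaving out 1 library each gave 1538 to 6950 genes and 4 to 10 sarcomere genes called in roX-KO males against wild-type females (3044 and 8 with all libraries), and 1068 to 5851 and 0 to 3 between the sexes (2441 and 0), the highest values being those without female library 3. Between the sexes DESeq2 called 1 sarcomere gene and the 9-library fit 1, Mlc1 in both. Leaving out 1 library each, uncalled log2 folds between the sexes spanned 0 for Mlc2 (-0.194 to 0.0391), Tm2 (-0.162 to 0.0479) and Tm1 (-0.0681 to 0.184), and that of sls against wild-type females was 0.0181 with total counts. The cause was not tested. Same-numbered libraries did not all deviate together (r of log2 CPM deviations all -0.01 between male groups, -0.58 to 0.40 between the sexes, 0.01 to 0.06 between roX-KO males and females). In no comparison did every library correlate best with the one of its own number. Libraries of unlike number also deviated together between the sexes (r = 0.67 for female 3 with male 2). With 3 libraries per group this cannot show whether libraries shared a batch. With that replicate number as a block, 6963 genes were called between the male groups, 1097 between the sexes and 2376 in roX-KO males against females, with no sarcomere gene gaining or losing its call. Depth limited none of the 10 genes, each with at least 3750 counts per library.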

Other observations

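In the fit on all 6 libraries, few genes of the other muscle lists were called between wild-type females and wild-type males. Called higher in females were 2 of 19 tested thin filament and Z disc genes, 1 of 14 attachment genes and 2 of 7 postsynaptic genes, and 0 in the thick filament, calcium handling and transcription factor lists, where 10.8% of all tested genes were called higher. The myoblast factor lmd, 1 of 8 transcription factors, was called lower (log2 fold -1.15 ± 0.25, edgeR adjusted p = 0.0189). Act79B, a muscle actin that adult tubular muscle uses, had 5.46, 5.25 and 7.24 CPM in females, against 1.64, 1.08 and 1.74 CPM in males, with no overlap. Its log2 fold was 2.0 ± 0.24 (edgeR adjusted p = 0.00228), and 1.84 without female library 3 (4.73e-05). GluRIIB, a glutamate receptor subunit of the neuromuscular junction, had 18.1, 20.7 and 13.8 CPM in females and 10.2, 8.18 and 10.03 CPM in males (log2 fold 0.89 ± 0.19, edgeR adjusted p = 0.0184). GluRIIC had 41.8, 39.4 and 47.8 CPM in females and 31.0, 30.2 and 31.2 CPM in males (0.48 ± 0.12, 0.0328), and Tsp, the tendon thrombospondin, 53.7, 55.0 and 56.4 CPM in females and 35.0, 37.9 and 37.1 CPM in males (0.59 ± 0.11, 0.0109). The fifth was sals, a gene for thin filament length, with 121, 129.8 and 137 CPM in females and 91.5, 83.4 and 85.2 CPM in males (0.58 ± 0.12, 0.0142). GluRIIB, GluRIIC, Tsp and sals kept their calls without female library 3. More genes were called in that fit, both in these lists and among all 11222 genes (2927 higher and 2924 lower). Of 19 thin filament and Z disc genes 5 were higher and 5 lower, and of 14 attachment genes 3 and 2. Of 8 transcription factors 3 were higher and 1 lower, Mef2 being among the higher (log2 fold 0.75, edgeR adjusted p = 0.000264). These genes are named because they were called, after their values were seen.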
